A study of Mus musculus with 2 samples.

Results

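The Hox genes of the mouse lie in 4 clusters, Hoxa on chromosome 6, Hoxb on chromosome 11, Hoxc on chromosome 15 and Hoxd on chromosome 2. The members described here are the protein-coding genes named Hoxa, Hoxb, Hoxc or Hoxd with a number from 1 to 13, found by mapping the deposited gene identifiers to GENCODE M21. There were 39 of them among 21474 protein-coding genes and 69691 rows in each table, with 11 in Hoxa, 10 in Hoxb, 9 in Hoxc and 9 in Hoxd. Their expression was measured by total RNA-seq in the embryonic facial prominences, from which the face and jaws are built. The embryos were of strain B6NCrl at 15.5 days of development, male and female together, and the labels name no treatment, mutation or control group. Replicate 1 pooled the tissue of 78 embryos and replicate 2 that of 62 embryos, both under 1 donor label, and each library started from 10 ng of RNA over 200 nucleotides long with spike-in RNA added. Because whole tissue of many embryos was pooled, fewer expressing cells and less RNA per cell cannot be told apart, and differences between embryos are not visible. With 1 group of 2 libraries there is no test between conditions, so values are given per library and as the mean ± SD (n = 2).

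Hox proteins are transcription factors that bind DNA through a homeodomain, encoded by the homeobox. Genes with the same number in different clusters are paralogs, and their number follows their order along the chromosome. Low numbers are generally used first and nearer the head, high numbers later and nearer the tail. The neural crest that builds most of the face is known as largely free of Hox expression, with Hoxa2 giving the arch behind the jaw its identity. Hoxc13 stands apart from this map because it acts in hair follicles and nails, whatever the body level.

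Reads of close paralogs could be confused only where their transcripts are alike, so the homeoboxes of the most abundant member, Hoxd8, and of its paralogs Hoxb8 and Hoxc8 are shown first. They come from GENCODE M21 transcripts, on the + strand of GRCm38 at chr2:74706525-74706704, chr11:96284174-96284353 and chr15:102992571-102992750, all in the second exon. Capitals mark bases that differ from Hoxd8.
Hoxd8: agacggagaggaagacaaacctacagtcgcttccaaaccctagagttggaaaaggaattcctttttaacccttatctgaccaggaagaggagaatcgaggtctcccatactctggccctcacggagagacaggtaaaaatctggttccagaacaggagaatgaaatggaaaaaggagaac
Hoxb8: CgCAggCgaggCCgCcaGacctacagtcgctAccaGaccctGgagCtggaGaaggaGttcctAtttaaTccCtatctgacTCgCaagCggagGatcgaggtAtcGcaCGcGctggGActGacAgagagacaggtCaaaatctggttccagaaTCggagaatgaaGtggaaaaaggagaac
Hoxc8: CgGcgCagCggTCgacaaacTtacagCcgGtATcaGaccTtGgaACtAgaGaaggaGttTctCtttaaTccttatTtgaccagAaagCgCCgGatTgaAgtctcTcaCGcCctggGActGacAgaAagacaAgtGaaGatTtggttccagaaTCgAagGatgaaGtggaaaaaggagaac
Over 180 nucleotides Hoxb8 differed from Hoxd8 at 35 positions and Hoxc8 at 48. The longest unbroken match was 17 nucleotides with Hoxb8 and 15 with Hoxc8, short against the 100 nucleotides that the deposited lengths imply for a read.

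The same comparison for the second most abundant member, Hoxc13, and its paralog Hoxd13, which acts in digits and genitalia, gave 45 differing positions and a longest match of 10 nucleotides. For Hoxa13, not printed, these were 41 positions and 14 nucleotides. The homeoboxes lie on the + strand at chr15:102927210-102927389 and chr2:74669930-74670109, again in the second exon. Capitals mark bases of Hoxd13 that differ from Hoxc13.
Hoxc13: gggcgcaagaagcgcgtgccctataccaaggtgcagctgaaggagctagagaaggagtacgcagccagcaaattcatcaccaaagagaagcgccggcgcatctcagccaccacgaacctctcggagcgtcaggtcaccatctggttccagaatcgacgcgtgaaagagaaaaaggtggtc
Hoxd13: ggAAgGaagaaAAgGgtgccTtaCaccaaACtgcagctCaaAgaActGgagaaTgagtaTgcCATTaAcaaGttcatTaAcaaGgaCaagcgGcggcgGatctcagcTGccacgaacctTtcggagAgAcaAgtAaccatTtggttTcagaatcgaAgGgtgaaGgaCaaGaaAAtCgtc
A homeobox of 180 nucleotides was found in all 39 members. Among the 42 pairs within a paralog group the median nucleotide identity was 80.6%, with a range from 67.2% for Hoxb13 and Hoxd13 to 93.9% for Hoxa3 and Hoxb3. Among the other 699 pairs it was 60.6%. No pair of homeoboxes was identical over 100 nucleotides, and the longest aligned match was 52 nucleotides, between Hoxa6 and Hoxb4.

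Whole transcripts gave a similar picture, with exceptions inside the clusters. Of the 39 members, 31 shared no stretch of 100 nucleotides on the same strand with a transcript of another gene, Hoxd8, Hoxd9, Hoxd1 and Hoxc13 among them. No member shared one with a Hox gene of another cluster. The 8 exceptions shared sequence with overlapping gene models. They include Hoxd3, with 57.8% of its windows, and Hoxd4, with 41.1%, which overlap each other and the readthrough model Gm28230. Hoxa2 shared 10.1% and Hoxa3 6.49% with Gm28308, Hoxd11 8.68% and Hoxd10 0.349% with Gm28309, and Hoxc5 and Hoxc10 2.31% and 3.81% with each other. Counts of these genes are uncertain to that extent. The strand setting of the quantification is not given in the sources used here, so reads of a member and of its antisense partner cannot be told apart where they overlap. That concerned 49.7% of the windows of Hoxb3 and 24.5% of those of Hoxb2, both opposite Hoxb3os, and 31.2% of those of Hoxa11, opposite Hoxa11os. It also concerned 17.6% of the windows of Hoxa3, 17.0% of Hoxa7 and 10.4% of Hoxa4, and 5.98% of Hoxd3 and 8.16% of Hoxd4 opposite Hoxd3os1.

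The libraries held 37128010 and 38543623 expected counts, and 1 count on a transcript of 1 kb made 0.0406 and 0.0389 TPM (abundance per transcript length, scaled to the library). Spike-ins took 2.91% and 4.59% of the counts, and 6.42% and 10.1% of the TPM. The libraries differed by more than sampling noise, with a common biological coefficient of variation of 0.126 over 18318 genes. A list of 19 homeobox genes of facial mesenchyme and epithelium is set beside the facial label. It was chosen with earlier results of these data known, so it is no check of that label. All 19 reached 1 TPM in both libraries, beside 65.4% of all coding genes. The highest were Msx1 at 145 and 158 TPM, Prrx1 at 79.0 and 86.1 TPM, and Alx1 at 65.6 and 77.6 TPM.

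Most Hox genes were barely represented. A level of 1 TPM or more in both libraries was reached by 6 of the 39 members, 15.4%, against 65.4% of all protein-coding genes. The 39 members together made 23.8 and 20.3 TPM in the libraries, less than Msx1 alone. Their 1235 and 1078 expected counts were spread very unevenly. The 6 detected members held 80.2% and 76.0% of the summed Hox TPM, and the 12 members with 10 or more counts in both libraries held 95.01% and 92.5%. At the other end, 23 members had 5 or fewer counts in each library, and 6 had none in either, which is 15.4% of the members beside 13.0% of all coding genes. The median Hox gene lay at 0.04 TPM in replicate 1 and 0.07 TPM in replicate 2, against 6.10 TPM over both for coding genes.

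**Figure D1:**
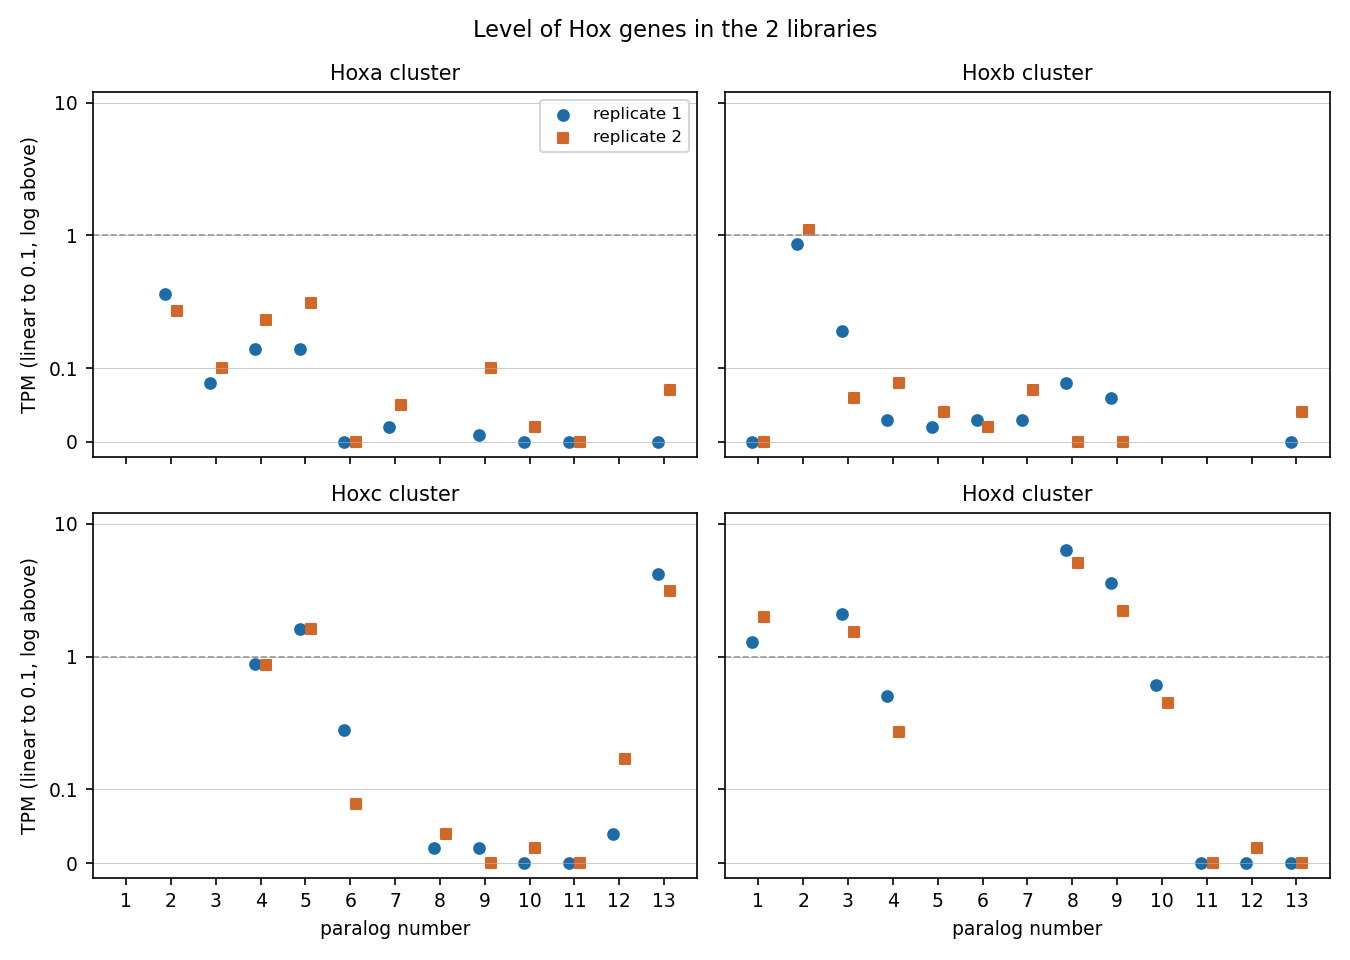
TPM of Hox genes by paralog number in the 4 clusters, with replicate 1 as circles and replicate 2 as squares, on an axis that is linear up to 0.1 TPM and logarithmic above; the dashed line is 1 TPM. In the Hoxd panel 4 genes lie above the line in both libraries and groups 11 to 13 lie at or near 0, while in the Hoxc panel Hoxc13 stands at 4.16 and 3.11 TPM above a run of genes near 0.

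The clusters differed in their totals. Members of Hoxd summed to 14.5 and 11.5 TPM, those of Hoxc to 7 and 5.89 TPM, those of Hoxb to 1.30 and 1.40 TPM and those of Hoxa to 1.06 and 1.56 TPM. Hoxd was highest and Hoxc next in both libraries, and neither range overlapped that of Hoxb or Hoxa. Hoxd made up 60.7% and 56.5% of the Hox total and Hoxc 29.4% and 29.0%. The 2 low clusters could not be ranked, since Hoxb was above Hoxa in replicate 1 and below it in replicate 2. None of the 11 Hoxa and 10 Hoxb members was detected at 1 TPM in both libraries, whereas 2 of 9 Hoxc and 4 of 9 Hoxd members were.

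Among the anterior genes, numbers 1 to 3, Hoxd members were the most abundant by TPM over all transcripts of a gene. Hoxd3, which helps to shape the first neck vertebrae, stood at 2.10 TPM in replicate 1 and 1.52 in replicate 2, from 122 and 96.9 expected counts. Its exact 95% Poisson interval, which covers counting error only, ran from 1.75 to 2.51 TPM in replicate 1 and from 1.23 to 1.85 in replicate 2. The gene is at chr2:74711927-74748442 on the + strand (ENSMUSG00000079277.5 in the files), in the span shared with Hoxd4 and Gm28230.

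Hoxd1, known for its part in wiring pain-sensing neurons, was higher in replicate 2 in TPM and after TMM scaling. Spike-in scaling, which moved the median of all coding genes to -0.65, put its log2 ratio at -0.03. It stood at 1.29 TPM in replicate 1 (56 counts) and at 1.99 TPM in replicate 2 (90 counts), and lies at chr2:74762980-74765142 on the + strand (ENSMUSG00000042448.5). The intervals were 0.974 to 1.67 TPM and 1.60 to 2.44 TPM. Hoxb2, a hindbrain gene, was next with 0.86 and 1.09 TPM, from 34.4 and 44 counts, and so crossed 1 TPM in 1 library only. Hoxb1, another hindbrain gene, had no count in either library. Hoxa2, the gene for identity of the second arch, had 14 and 11 counts, 0.36 and 0.27 TPM. Hoxa3, needed for thymus and parathyroid, stood at 0.08 and 0.10 TPM and Hoxb3 at 0.19 and 0.06 TPM. The replicate 1 value of Hoxb3 came from 2 counts placed on short transcripts and its replicate 2 value from 4.37 counts, so the order of these values is not informative.

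In the central block, numbers 4 to 8, a single gene held most of the signal. Hoxd8 had 385 and 301 counts and stood at 6.39 and 5.02 TPM, 5.71 ± 0.969 TPM (SD, n = 2), at chr2:74704615-74707933 on the + strand (ENSMUSG00000027102.4). Its intervals were 5.77 to 7.07 TPM and 4.47 to 5.62 TPM. Its paralogs were close to absent. Hoxb8, known in blood progenitors, had 2 counts in replicate 1 and none in replicate 2, and Hoxc8, which marks motor neuron pools of the forelimb, had 1 and 2 counts. Hoxd8 made 98.8% of the mean TPM of its paralog group.

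Hoxc5 and Hoxc4 lie side by side at the anterior end of Hoxc. Hoxc5 stood at 1.60 TPM in both libraries (ENSMUSG00000022485.3, chr15:102967443-103017429, + strand), although its counts were 55 and 66. The intervals were 1.21 to 2.09 TPM and 1.24 to 2.04 TPM, far wider than the difference. Hoxc4 stood at 0.88 and 0.87 TPM from 41 and 42 counts, just under the threshold in both libraries. Hoxd4 had 0.50 and 0.27 TPM, from 23.4 and 13.9 counts, within the overlap with Hoxd3.

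The other central genes were lower. Hoxa5, which acts in lung and neck skeleton, had 6 and 14 counts, 0.14 and 0.31 TPM, and Hoxa4 had 5 and 9 counts, 0.14 and 0.23 TPM. Hoxc6 had 8 and 3 counts, 0.28 and 0.08 TPM. Hoxb4, Hoxb5, Hoxb6, Hoxb7 and Hoxa7 each had 5 or fewer counts and at most 0.08 TPM in either library, and Hoxa6 had none. Apart from Hoxd8, Hoxc5, Hoxc4 and Hoxd4, no central member had 10 counts in both libraries.

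Among the 16 posterior genes, numbers 9 to 13, Hoxc13 and Hoxd9 reached 1 TPM in both libraries and no other did. Hoxc13 had 242 and 189 counts and stood at 4.16 and 3.11 TPM, 3.64 ± 0.742 TPM (SD, n = 2), at chr15:102921103-102928814 on the + strand (ENSMUSG00000001655.6). Its intervals were 3.65 to 4.72 TPM and 2.69 to 3.59 TPM, which do not overlap as given, by a narrow margin. Replicate 2 had the larger spike-in share of TPM, and the intervals were not rescaled over mouse genes. Its neighbour Hoxc12 had 1 and 4 counts, and Hoxc11, the next gene, had none. The paralogs Hoxa13, Hoxb13 and Hoxd13 had at most 4 counts in any library, with Hoxd13 at 0 in both.

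Hoxd9, which acts with its paralogs in limbs and lumbar motor neurons, had 180 and 116 counts and stood at 3.59 and 2.22 TPM, at chr2:74697727-74700208 on the + strand (ENSMUSG00000043342.9). Its intervals, 3.08 to 4.15 TPM and 1.83 to 2.66 TPM, did not overlap on the same scale. Hoxa9, Hoxb9 and Hoxc9 had 3 or fewer counts in each library. Hoxd10, beside Hoxd9, had 26 and 20 counts, 0.61 and 0.45 TPM, whereas Hoxa10 and Hoxc10 had at most 1. In Hoxd the signal ended there, since Hoxd11 and Hoxd13 had no count and Hoxd12 had 1 in replicate 2. Group 11, which patterns the forearm and kidney, was empty, with Hoxa11, Hoxc11 and Hoxd11 at 0 in both libraries.

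An absence of counts has a limit. For the 6 members with none (Hoxa6, Hoxa11, Hoxb1, Hoxc11, Hoxd11 and Hoxd13), the 3 counts that a count of 0 allows correspond to between 0.0490 TPM for Hoxd13 in replicate 2 and 0.157 TPM for Hoxa6 in replicate 1. A count of 0 therefore allows levels up to those values. The 27 members under 10 counts in a library lay between 0 and 0.31 TPM, and no order among them is given. Among the higher members, Hoxd8 lay above Hoxc13 in both libraries with no overlap of their values. The values of Hoxc13 and Hoxd9 overlapped. Hoxd9 lay above Hoxd3, Hoxd1 and Hoxc5, which overlapped one another and lay above Hoxb2 and Hoxc4. These orders are of the library values only, and some counting intervals overlapped. In replicate 2 they were 1.83 to 2.66 TPM for Hoxd9 and 1.60 to 2.44 TPM for Hoxd1. In replicate 1 they were 0.974 to 1.67 TPM for Hoxd1 and 0.598 to 1.20 TPM for Hoxb2. The values of Hoxc5 and Hoxd3 include noncoding transcripts, given below. On coding transcripts alone Hoxd3 had 0.80 TPM in replicate 2, where Hoxb2-201 had 1.06 and Hoxc4-201 had 0.87 TPM. The place of Hoxd3 and Hoxc5 above Hoxb2 and Hoxc4 therefore holds for all transcripts of a gene only. Nearest to the threshold of 1 TPM were Hoxb2 and Hoxc4 below it, and Hoxc5 and Hoxd1 above it.

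Summed by position, numbers 1 to 3 held 21.8% and 26.7% of the Hox TPM, numbers 4 to 8 held 42.6% and 42.7%, and numbers 9 to 13 held 35.6% and 30.6%. In most paralog groups 1 member carried the sum. Its share of the group's mean TPM was 75.6% for Hoxb2, 89.4% for Hoxd3, 86.3% for Hoxc5, 96.8% for Hoxd9, 96.4% for Hoxd10 and 98.5% for Hoxc13. Group 4 was more even, with Hoxc4 at 58.3% and all 4 members present at low levels. The leading member belonged to Hoxd in groups 1, 3, 8, 9 and 10, to Hoxc in groups 4, 5 and 13, and to Hoxb in group 2. The other groups held too few counts to name a leading member.

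**Figure D2:**
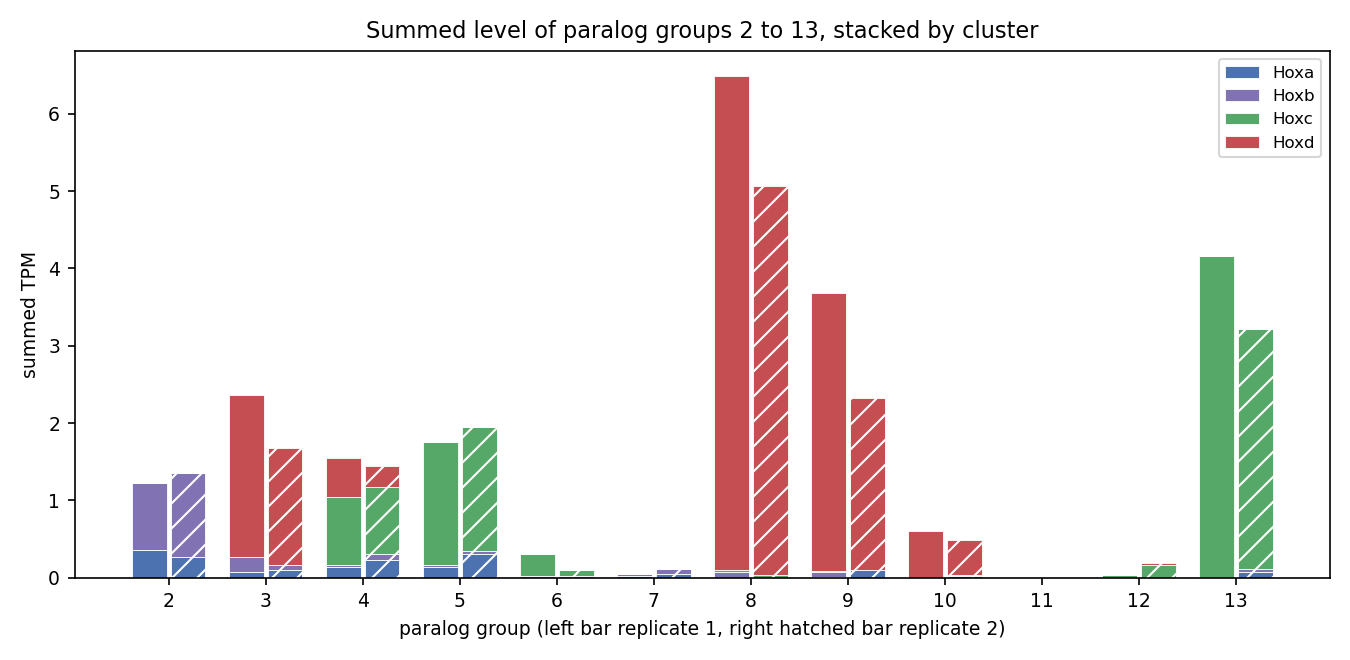
Summed TPM of paralog groups 2 to 13, stacked by cluster, with replicate 1 as the left bar and replicate 2 as the right hatched bar. Group 8 is highest at 6.49 and 5.06 TPM, almost all Hoxd8, followed by group 13 at 4.16 and 3.22 TPM, almost all Hoxc13; groups 6, 7, 11 and 12 are near 0.

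Position along the chromosome showed where signal stopped. The Hoxd cluster spans 96.8 kb, and Hoxd8, Hoxd9 and Hoxd10 lie side by side with levels falling from Hoxd8 to Hoxd10 in both libraries. Evx2, the homeobox gene 8.75 kb beyond Hoxd13, had 0.01 and 0 TPM, so the silent stretch ran from Hoxd11 to Evx2. On the other side Mtx2, a mitochondrial import gene 60.7 kb from Hoxd1, stood at 78.0 TPM in both libraries. Hoxa was similarly low at its posterior end, where Evx1, 52.6 kb beyond Hoxa13, had 0 and 0.03 TPM. Skap2, a signalling adaptor 143 kb from the anterior end of Hoxa, had 10.1 and 11.9 TPM. Around Hoxc the flanking genes were both active, with Calcoco1 at 53.2 and 53.8 TPM, 199 kb from Hoxc13, and the DNA repair gene Smug1 at 13.6 and 13.8 TPM, 116 kb from Hoxc4. The neighbours of Hoxb were low. Ttll6, 28.9 kb from Hoxb13, had 0.92 and 1.85 TPM, and Skap1, 96.3 kb from Hoxb1, had 1.59 and 1.81 TPM.

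**Figure D3:**
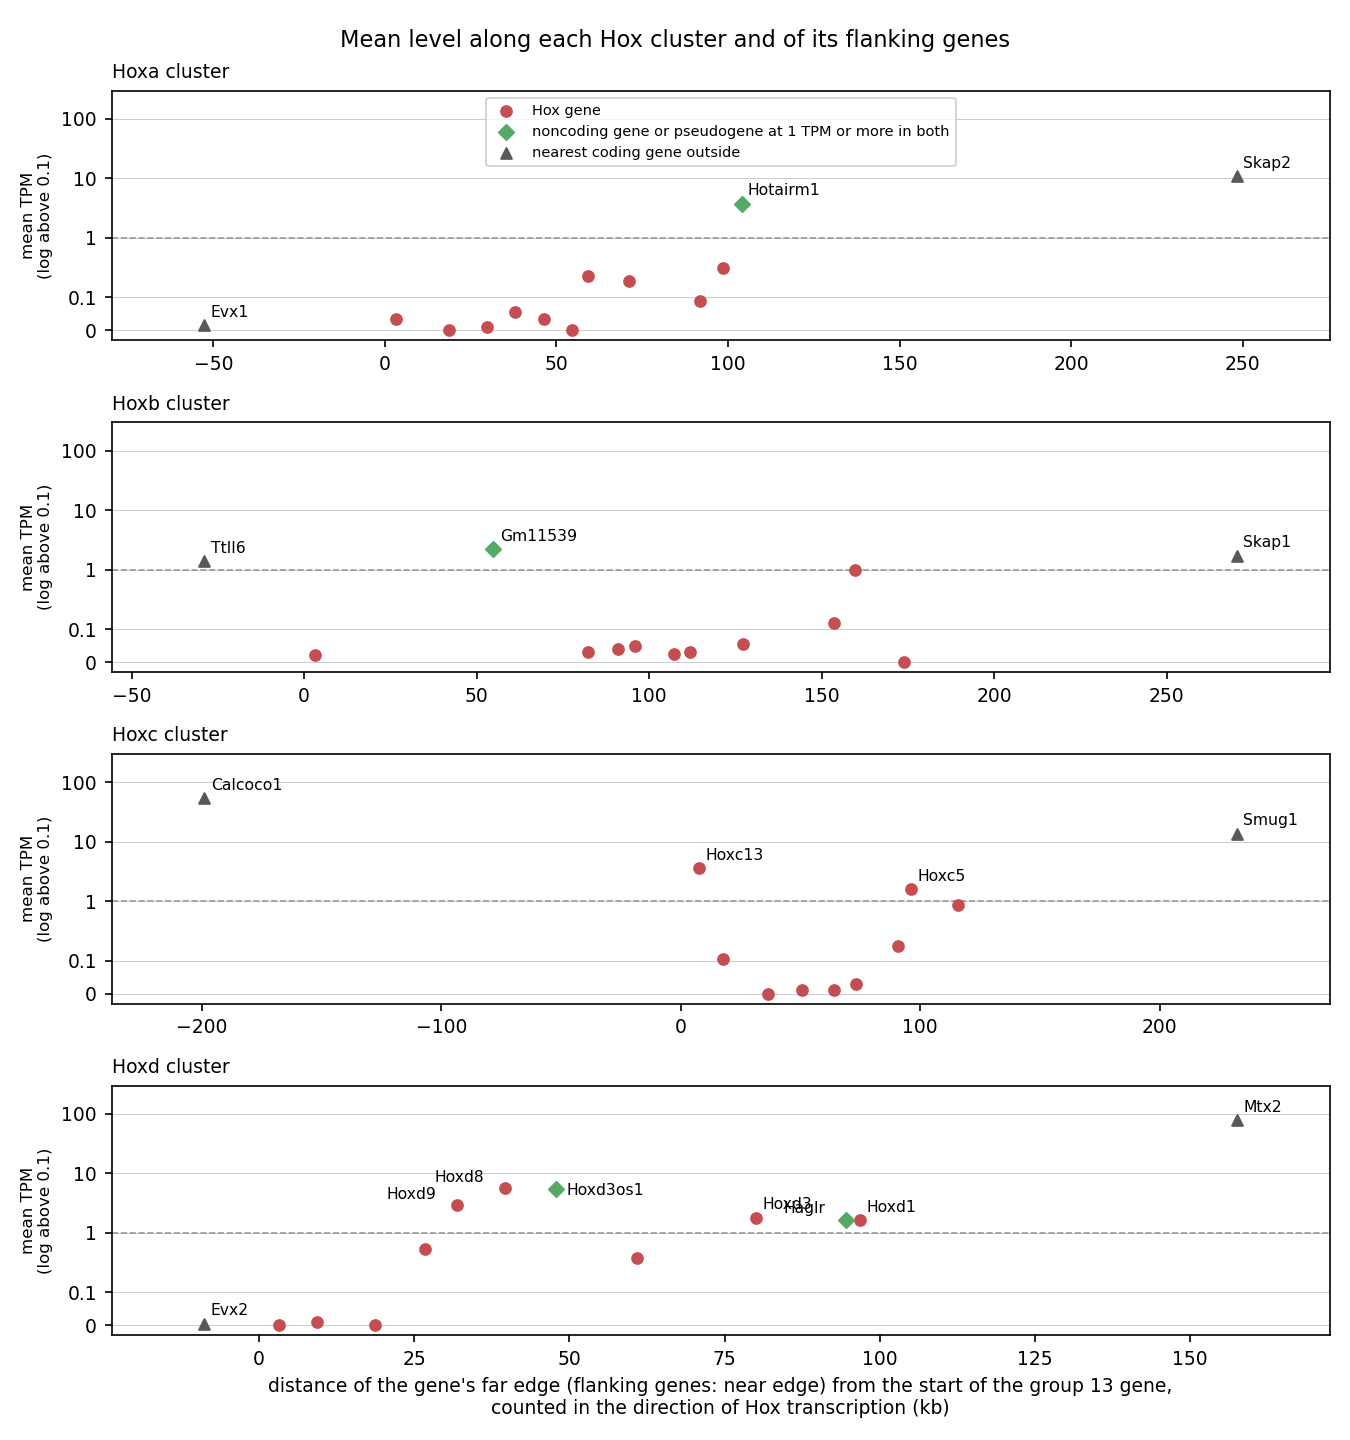
Mean TPM of Hox genes (circles), of noncoding genes and 1 pseudogene at 1 TPM or more in both libraries (diamonds) and of the nearest coding genes outside (triangles), against distance in kb from the start of the group 13 gene; the axis is linear to 0.1 TPM and logarithmic above. In Hoxd the genes near 0 are Hoxd11, Hoxd12 and Hoxd13 next to Evx2, and in Hoxc the genes near 0 lie between Hoxc13 and Hoxc5.

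Noncoding RNA of the clusters was detected in Hoxd, as were the coding genes, and at the anterior end of Hoxa. Inside the 4 spans lay 42 noncoding genes and pseudogenes, of which 26 had no count and 4 reached 1 TPM in both libraries. Of the 42, 8 had no effective length and could get no count. Among all 20988 noncoding genes and pseudogenes 63.4% had no count and 7.71% reached 1 TPM in both, so both counts were near the background. Hoxd3os1, antisense to Hoxd3 and Hoxd4, stood at 5.68 and 5.19 TPM, from 90.6 and 88.5 counts, a level per length close to that of Hoxd8. Haglr, a long noncoding RNA beside Hoxd1, had 1.56 and 1.79 TPM from 38 and 53 counts. Hotairm1, at the anterior end of Hoxa, had 3.06 and 4.47 TPM, above the summed level of all 11 coding Hoxa genes. That level rests on 16 and 29.5 counts over transcripts averaging 311 nucleotides in replicate 1. Gm11539, a processed pseudogene in the gap between Hoxb13 and Hoxb9, had 2.74 and 1.65 TPM, and reads of its parent gene may be counted there. Halr1, outside the Hoxa span, had 2.40 and 2.89 TPM, while Hotair, Hottip and Hoxa11os had no count. Of 18 noncoding genes listed for the clusters 17 were in the tables and 4 reached 1 TPM in both libraries. The listed microRNA hairpins had no count, and none had an effective length over 11 nucleotides.

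Transcript estimates were alike in the libraries for some members and not for others. Hoxc13, Hoxd9, Hoxd1 and Hoxd10 have 1 annotated transcript. Of the transcripts of Hoxd8, Hoxd8-201 took 89.5% and 76.9% in the authors' estimate and Hoxd8-202 took 10.4% and 23.1%, while Hoxd8-203, which begins farthest upstream, had no count. Hoxb2-201 took 93.9% and 97.0% of Hoxb2 and Hoxc4-201 took 91.6% and 100% of Hoxc4. Hoxc5 was split between the coding Hoxc5-201, with 38.0% and 47.1%, and the shorter noncoding Hoxc5-202, with 62.0% and 52.9%. By counts, which favour long transcripts, Hoxc5-201 had 77.0% and 83.0%. The TPM of Hoxc5 therefore includes a noncoding transcript of 615 nucleotides that held 12.6 and 11.2 counts. The coding Hoxc5-201 alone stood at 0.61 and 0.75 TPM, under 1 TPM in both libraries.

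Other members had different leading transcripts in the libraries. For Hoxd3 the coding Hoxd3-203 took 62.1% in replicate 1 and 26.9% in replicate 2, and the retained intron transcript Hoxd3-206 took 18.7% and 47.4%. The coding transcripts of Hoxd3 summed to 1.71 TPM in replicate 1 and 0.80 TPM in replicate 2. On coding transcripts alone 4 of the 6 detected members, without Hoxc5 and Hoxd3, reached 1 TPM in both libraries. For Hoxd4 the coding Hoxd4-202 took 53.4% and 6.34%. Gm28230, which runs through Hoxd4 and Hoxd3, took 6.01 and 27.8 counts, more in replicate 2, where both genes had fewer. The part of read assignment among these 3 models in the Hoxd3 and Hoxd4 values was not tested.

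The region just upstream of Hoxd8 can be set beside that of its near-silent paralog Hoxb8. Below are the 250 bases before the RefSeq start of each (GRCm38.p6), at chr2:74704365-74704614 and chr11:96281655-96281904, both on the + strand, with CG dinucleotides in capitals.
Hoxd8: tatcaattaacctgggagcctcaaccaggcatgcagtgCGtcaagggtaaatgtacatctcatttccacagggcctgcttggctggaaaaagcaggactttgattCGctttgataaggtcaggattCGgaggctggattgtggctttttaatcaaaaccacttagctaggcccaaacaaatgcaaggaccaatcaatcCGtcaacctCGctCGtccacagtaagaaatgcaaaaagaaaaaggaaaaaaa
Hoxb8: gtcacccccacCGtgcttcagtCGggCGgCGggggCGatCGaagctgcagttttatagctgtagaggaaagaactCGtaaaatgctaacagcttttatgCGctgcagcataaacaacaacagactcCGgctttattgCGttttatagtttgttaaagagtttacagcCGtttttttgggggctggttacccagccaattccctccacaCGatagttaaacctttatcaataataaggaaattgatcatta
They hold 6 and 12 CG dinucleotides, at the same GC content of 44.4%. The RefSeq start of Hoxd8 is that of Hoxd8-203, 290 bases upstream of Hoxd8-201, the transcript that held most counts. The table gave 24 upstream regions for 22 Hox genes, with none for Hoxc13, and their median was 12.5 CG dinucleotides against 6 in 32851 regions of all genes. Detected members ranged from 6 in Hoxd8 through 12 in Hoxd3 and 13 in Hoxd9 to 24 in Hoxd1, and Hoxd13, with no count, had 31. The letters TGATNNAT, a form of the joint site of Hox and Pbx proteins, were searched on both strands and found in 4 of the 24, beside 7.68% of all regions. The letters TTTATG, found in sites of posterior Hox proteins, occurred in 5, beside 10.8% of all. Hoxb8 held both and Hoxd8 neither, which describes these windows only.

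The replicates differed in their Hox levels in 1 direction more often than the other. Ratios of replicate 2 to replicate 1 were taken on counts scaled by TMM (trimmed mean of M values), with a prior count of 2, for the 12 members that had at least 10 counts in each library. Of these, 8 were lower and 4 higher in replicate 2, beside 7663 of 15714 coding genes lower at the same filter. Hoxc4, at -0.02, was among the 8. The median log2 ratio of the 12 was -0.37, where all coding genes had 0.00. A fold past 1.5 was seen for 3 of the 12, 25%, against 6.48% of coding genes with 10 or more counts in both. Low counts scatter more, and among coding genes with a mean of at most 400 counts, a limit chosen after the values were seen, the share was 18.0%. The 3 were Hoxd9 and Hoxd4, lower at log2 ratios of -0.68 and -0.70, and Hoxd1, higher at 0.61.

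Counting error was wide for the members with few counts. The 95% counting interval of the log2 ratio left out 0 for 4 of the 12 members. Among the 4 were all 3 members with 100 or more counts in both libraries, Hoxd8, Hoxc13 and Hoxd9. The share for all coding genes was not computed, so these 4 are not set apart from other genes. The interval covers counting error only, and the libraries differed by more than that. This interval ran from -1.04 to -0.35 for Hoxd9, from -0.64 to -0.19 for Hoxd8, from -0.70 to -0.14 for Hoxc13 and from 0.13 to 1.13 for Hoxd1. For Hoxd4 it ran from -1.85 to 0.24. Scaling by the spike-ins moved the median of all coding genes to -0.65 and made all 12 members lower in replicate 2, with Hoxd1 at -0.03, Hoxb2 at -0.32 and Hoxc5 at -0.44. Against that shifted median these 3 were still higher. Under library totals Hoxc4 moved from -0.02 to 0.01.

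**Figure D4:**
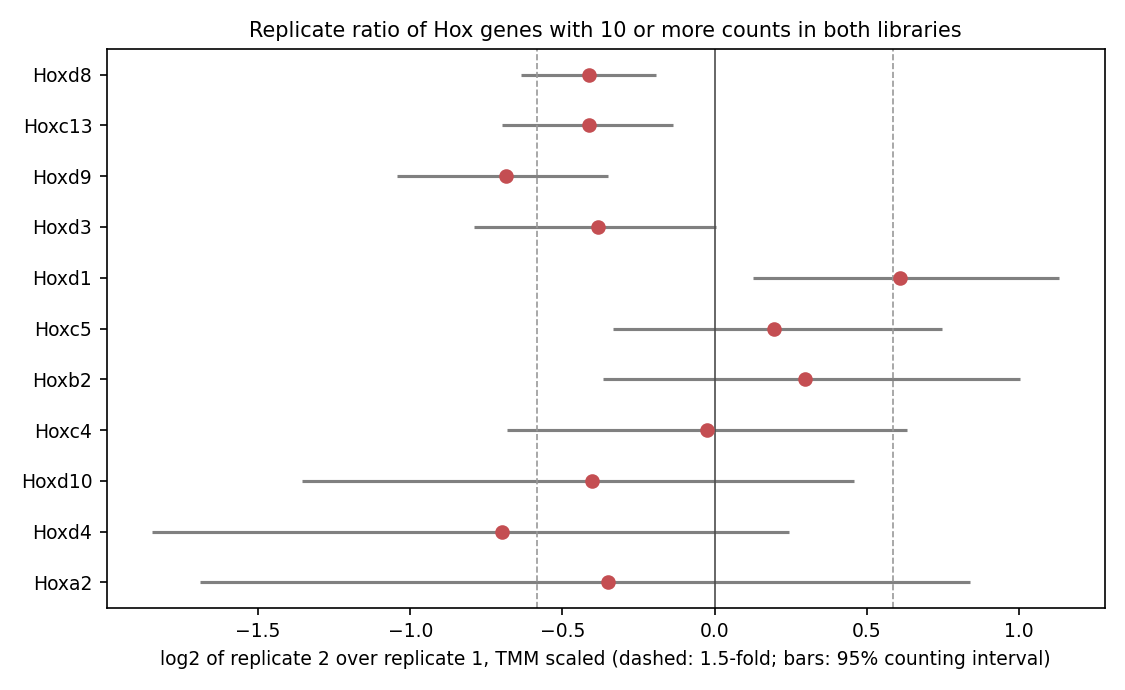
Log2 ratio of replicate 2 to replicate 1 after TMM scaling for Hox genes with at least 10 counts in each library, ordered by mean TPM; bars are 95% counting intervals and dashed lines mark 1.5-fold. The bars of Hoxd8, Hoxc13 and Hoxd9 lie wholly below 0 and that of Hoxd1 wholly above it, for counting error only.

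The partners of Hox proteins were present at far higher levels than the Hox genes themselves. TALE homeodomain proteins bind DNA together with Hox proteins, and all 9 listed genes reached 1 TPM in both libraries, with a median of 19.8 TPM. Meis1 stood at 42.1 and 38.2 TPM, Meis3 at 38.0 and 40.1 TPM and Meis2 at 29.2 and 26.3 TPM. Pbx3 had 16.9 TPM in both, and Pbx2 10.6 and 8.67 TPM. Pknox1 had 20.3 and 19.4 TPM and Pknox2 11.5 and 11.1 TPM. Pbx4 was the exception between replicates, with 7.66 and 15.2 TPM. The lowest TALE mean, 9.64 TPM for Pbx2, was above the highest Hox mean, 5.71 TPM for Hoxd8.

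Other homeobox genes of the Hox-like class split sharply. Of 13, only Meox2 at 15.4 and 11.8 TPM and Meox1 at 9.86 and 8.72 TPM were detected. Both act in somite-derived and other mesenchyme. Gbx2 followed at 0.23 and 0.22 TPM, and Gsx2, Pdx1 and Cdx2 had no count. Among 18 regulators of Hox genes 15 were detected, led by the insulator protein Ctcf at 93.7 and 94.6 TPM, the retinoic acid receptor Rarg at 89.4 and 95.8 TPM and the Polycomb subunit Rnf2 at 66.2 and 62.9 TPM. The 3 not detected were Cdx1, Cdx2 and Cdx4, which switch on Hox genes in the trunk, at 0.04 TPM or less.

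**Figure D5:**
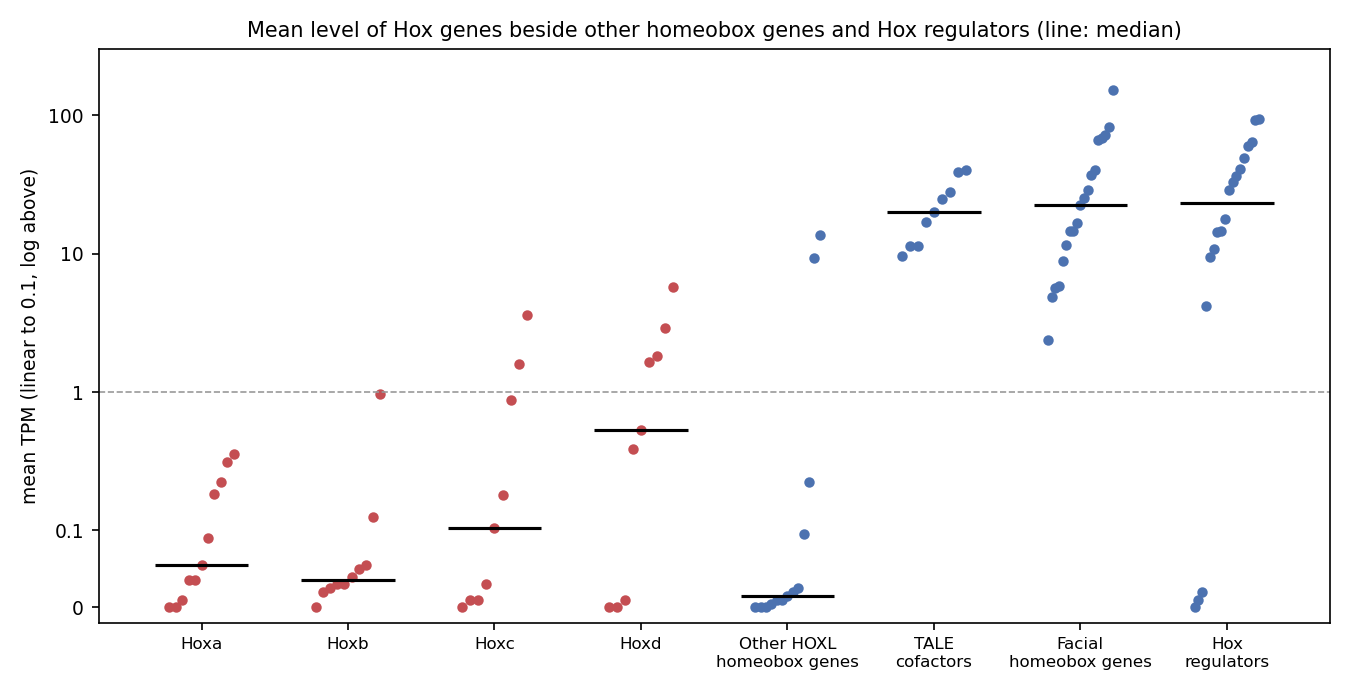
Mean TPM over both libraries of each gene in the 4 Hox clusters (red) and in lists of related genes (blue), with the median as a line, on an axis that is linear to 0.1 TPM and logarithmic above. All TALE and facial homeobox genes lie above the dashed line at 1 TPM, as do 2 genes of the other Hox-like list, and 6 Hox genes.

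Markers of tissues in which Hox genes are known to be active are given beside these levels, and their part in the Hox signal was not tested. Hair keratins and partners, listed for Hoxc13 without a test of that link, were in the tables for 15 of 16. Of these, 13 reached 1 TPM in both libraries. Their summed level was 326 TPM in replicate 1 and 156 TPM in replicate 2. All 14 with 10 or more counts were lower in replicate 2, beside 7663 of 15714 coding genes. The 14 had a median log2 ratio of -1.18, with Foxn1 at only -0.17, beside -0.41 for Hoxc13. Krt84, with 3 and 14 counts, was higher in replicate 2. Krt71 stood at 158 and 79.6 TPM, Krt25 at 57.2 and 20.5 TPM and Krt35 at 30.2 and 18.1 TPM. Krt71 and Krt25 made most of the sum in both libraries, so the sum mainly describes those genes.

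Markers of nerve tissue were mixed. Of 7 motor neuron genes 2 were detected, with a sum of 16.6 and 19.4 TPM, mostly Isl1 at 13.8 and 17.1 TPM, a gene also used outside neurons. Lhx3 followed at 1.44 and 1.02 TPM and Slc5a7 at 0.60 and 0.70 TPM, and the defining enzyme gene Chat had 0 and 0.03 TPM. Of 10 hindbrain and spinal cord interneuron genes 2 were detected, with a sum of 7.41 and 9.04 TPM. They were Egr2 at 4.41 and 3.93 TPM and Olig2 at 1.13 and 2.60 TPM, with Slc17a6 next at 0.75 and 1.23 TPM and Ptf1a at 0. Pan-neuronal genes were detected for 7 of 8, with sums of 186 and 185 TPM, led by Gap43 at 93.3 and 87.6 TPM, Tubb3 at 34.6 and 37.8 TPM and Stmn2 at 32.7 and 33.0 TPM. Genes of cranial ganglia and glia were detected for 8 of 10, with sums of 74.4 and 75.0 TPM, led by Erbb3, Ntrk2 and Sox10 at 20.7, 16.9 and 9.05 TPM in replicate 1.

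Markers of trunk and limb mesenchyme, where posterior Hox genes are known to act, were detected for 6 of 8, beside 65.4% of coding genes, with sums of 36.7 and 38.0 TPM and none at 0. The leading genes were Meox1, given above, Pax1 at 7.28 and 7.71 TPM and Uncx at 4.19 and 8.69 TPM, and the limb genes Tbx4 and Tbx5 had 1.67 and 1.43 TPM and 1.05 and 0.51 TPM. Blood progenitor and macrophage genes were all detected, 8 of 8, with sums of 200 and 193 TPM. Most of each sum was Cd34 at 111 and 97.3 TPM, followed by Csf1r at 24.2 and 23.6 TPM and Gata2 at 18.5 and 23.8 TPM. Ptprc was the lowest of the 8 at 3.04 and 2.69 TPM. The sums of this list mainly describe Cd34 and are no measure of blood cells. Endothelial genes were detected for 6 of 6, with sums of 239 and 218 TPM, led by Egfl7 at 101 and 87.2 TPM, Esam at 45.2 and 40.9 TPM and Pecam1 at 35.0 and 34.4 TPM.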

How the data were processed

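Total RNA-seq libraries of 2 pools of facial prominence were read from the tables deposited for each library. Reads were aligned by the authors to mm10 with annotation M4, as the text deposited beside each table says. Which aligner and which quantification program they ran, and with what strand setting, is not given in the sources used here. For every gene and transcript the deposited columns hold the authors' expected count, TPM and FPKM, unscaled between libraries, per the file headers. The transcript tables add each transcript's percent of its gene, as deposited by the authors. The authors' credibility bounds of TPM, recorded as a score, are not printed. Spike-ins and numbered sequences share the deposited TPM total.

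Genes were named by GENCODE M21 (GRCm38), and 31 of the 39 Hox identifiers had the same version there and 8 another. Members and gene lists were chosen with earlier results of these data known. Members were named with a value or a range. Also named were the TALE genes, the 3 highest genes by mean TPM of each other list, the nearest coding gene on either side of each cluster, and noncoding genes in a cluster at 1 TPM in both libraries. In all, 2 genes under this rule are not reported here. Detection meant 1 TPM or more in both libraries. Levels of TPM carry exact 95% Poisson intervals from the counts, and these and the floor of 3 counts cover counting error only. Ratios used rounded expected counts, TMM in edgeR 4.0.16 (R 4.3.3), a prior count of 2 and a fold of 1.5, and DESeq2 1.42.0 gave other size factors. The ratio formula, without TMM factors, and the Poisson interval of counts were tried on simulated Poisson counts. The interval of the ratio was not tried. Shared windows were searched over all GENCODE M21 transcripts. Other steps ran in Python 3.11.15 (pandas 2.3.3, numpy 2.4.6, matplotlib 3.10.9, scipy 1.17.1). Alternatives were other TPM forms, thresholds, filters, pseudocounts and scalings, and each library alone.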

Additional observations from a re-analysis of the deposited data

How the results depend on the processing

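The number of members detected was 6 at 1 TPM, 14 at 0.1 TPM, 12 at 10 counts and 3 at 100 counts in both libraries. Of 21474 coding genes, 65.4% reached 1 TPM, 15714 had 10 or more counts and 13176 had 100 or more in both. The share of coding genes at 0.1 TPM was not computed. With the authors' posterior mean TPM, which is above 0 for every gene, the shares of Hoxa, Hoxb, Hoxc and Hoxd in the Hox total went from 6.06%, 6.17%, 29.2% and 58.6% to 10.5%, 8.14%, 27.1% and 54.3%. With expected counts in place of TPM the shares of Hoxb, Hoxc and Hoxd were 4.68%, 28.4% and 61.7%. Spike-in scaling gave a median log2 replicate ratio of -0.96, beside -0.65 for all coding genes, put 8 of 12 members past 1.5-fold, beside 66.3% of coding genes, and moved Hoxd1 from 0.61 to -0.027. Without a filter on low counts 14 of 39 members were past 1.5-fold, beside 2791 of 21474 coding genes (13.0%), and the members' median was 0. These shares are not alike in depth, since 27 of the 39 members were under 10 counts in a library. The share among coding genes of like counts was not computed. At 100 or more counts 1 of 3 members was past 1.5-fold, beside 2.55% of coding genes. Of the values that answer a comparison, 30 others moved by less than the spread between replicates or by less than 1.5 times, leaving out either library included. No paired analysis was possible because there is 1 group. Depth limits all members under 10 counts, and no other tissue or age was analysed here.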
